A study of Mus musculus with 48 samples.

Results

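The cathepsins described here are 10 lysosomal protease genes, Ctsa, Ctsb, Ctsc, Ctsd, Ctsf, Ctsh, Ctsk, Ctsl, Ctss and Ctsz. They were taken by mouse gene symbol from the 48709 Ensembl genes with a read count, and all 10 were found and passed the filter on low counts in every comparison. The study sequenced brain RNA of 46 male C57BL/6J mice in 48 runs, and asked how loss of Formin 2 (Fmn2), an actin nucleator, and amyloid pathology change gene expression. In the first experiment the dentate gyrus of Fmn2+/+ and Fmn2-/- mice was sequenced at 3 months (5 and 5 mice) and at 8 months (3 and 5 mice). In the second, 3-month-old mice of a cross between the Fmn2 line and the APPPS1-21 amyloid line were labelled FMN2-/-_APP (7 mice) or FMN2 +/+ APP (9 mice). All mice of the cross carry the amyloid transgenes, which a Thy1 promoter drives in neurons. In the third, APP mice and wild type mice labelled 4 months (6 and 6 mice) were compared, an age that is uncertain because the study's text describes its amyloid and wild type mice as younger. The Fmn2-/- mice lack the gene in every cell from conception.

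Cathepsins are made as inactive precursors, sorted to the lysosome and activated there by the low pH. Most are cysteine proteases of the papain family, while Ctsd encodes an aspartic protease and Ctsa a serine carboxypeptidase that also protects other lysosomal enzymes from breakdown. In the brain every cell type degrades protein with the broadly expressed cathepsins B, D and L, whereas cathepsin S is known as an enzyme of microglia and other phagocytes, where it cuts the invariant chain during antigen presentation.

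Lysosomal genes often carry an E-box read by the factor TFEB and its relatives, and genes of phagocytes often carry a site read by PU.1, so promoters of the members were searched for letters of both motifs. The promoters came from RefSeq (GRCm38.p6), 250 bases before to 50 after the start, and 8 of the 10 members had one. Of all 32851 promoters, 7.15% held the E-box CACGTG, 0.974% the extended form TCACGTGA that contains it, and 3.2% the PU.1 letters GAGGAAGT, each searched on both strands. The E-box was found in Ctsa (at the second of its 2 starts), Ctsd, Ctsf and Ctsl, with the extended form in Ctsa and Ctsd. The PU.1 letters were found on the opposite strand in Ctsc and Ctss and do not overlap an E-box. Stretches of 60 bases are printed for these genes, on the gene's own strand, with the matches in capitals, because they set the broadly expressed Ctsd beside the microglial Ctss.
Ctsd, chr7:142387893-142387952, minus strand: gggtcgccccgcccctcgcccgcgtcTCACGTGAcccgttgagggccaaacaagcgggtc
Ctsa, chr2:164833733-164833792, plus strand: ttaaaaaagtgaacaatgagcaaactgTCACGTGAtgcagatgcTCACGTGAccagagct
Ctsf, chr19:4855059-4855118, plus strand: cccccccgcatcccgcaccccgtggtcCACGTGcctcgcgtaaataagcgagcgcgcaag
Ctsl, chr13:64370711-64370770, minus strand: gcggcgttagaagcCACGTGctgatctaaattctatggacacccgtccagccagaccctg
Ctss, chr3:95526746-95526805, plus strand: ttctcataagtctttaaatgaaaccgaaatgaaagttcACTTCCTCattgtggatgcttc
Ctsc, chr7:88277908-88277967, plus strand: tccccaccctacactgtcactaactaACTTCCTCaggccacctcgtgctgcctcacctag
In Ctss the match spans the start site, from position -2 to 6, and in Ctsc it begins at position -151. The promoters of Ctsk and Ctsz held none of these letters in the window. A match is a description of letters and not a measured binding site.

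The members are spread over 7 chromosomes of mm10. Ctsk (ENSMUSG00000028111, chr3:95499256-95509362) and Ctss (ENSMUSG00000038642, chr3:95526786-95556403) are neighbours, 17423 bases apart. Ctsc (ENSMUSG00000030560, chr7:88278085-88310888) and Ctsd (ENSMUSG00000007891, chr7:142375911-142388038) lie far apart on chromosome 7, and Ctsa (ENSMUSG00000017760, chr2:164832873-164841032) and Ctsz (ENSMUSG00000016256, chr2:174427493-174439039) on chromosome 2. The others are Ctsb (ENSMUSG00000021939, chr14:63122462-63145923), Ctsf (ENSMUSG00000083282, chr19:4855130-4860918), Ctsh (ENSMUSG00000032359, chr9:90054152-90076089) and Ctsl (ENSMUSG00000021477, chr13:64359337-64370890). The library kit does not mark strand, so reads from exons that Ctsa shares with the antisense genes Neurl2 and Pltp, Ctsb with Fdft1, and Ctsz with Nelfcd cannot be assigned by strand. Ctsd shares 808 of its 2351 exon bases with Gm49369 on the same strand, a gene with 0 counts over all mice. How reads from these bases were counted was not tested.

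The gene counts of a mouse summed to at least 6818809 and at most 43921030 reads. Fmn2 itself was at 102.5 ± 7.35 CPM (read counts scaled to library size, by TMM over all mice; SD, n = 5) in 3-month Fmn2+/+ mice and at 24.8 ± 2.39 (SD, n = 5) in Fmn2-/- mice. In the cross it went against the labels, with 90.9 ± 6.86 (SD, n = 7) in mice labelled FMN2-/-_APP and 20.5 ± 1.48 (SD, n = 9) in mice labelled FMN2 +/+ APP, so the groups are named by their label throughout. Of all libraries, 3 (Fmn2-/- replicate 4 of 3 months and FMN2 +/+ APP replicates 4 and 5) had summed choroid plexus markers of 4138 CPM or more, and wild type replicates 3 and 4 of 4 months had the highest oligodendrocyte marker sums of their group (5882 and 3768 CPM). The 4-month samples are labelled dentate gyrus while their titles name PFC, and 5 of 6 dentate granule cell markers were lower in their wild types than in 3-month wild types (Dsp by a log2 difference of -9.72), whereas 5 of 6 cortical markers were higher.

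Per exon length, Ctsb, Ctsd and Ctss were the most abundant of the 10 cathepsins in the wild type brain, and Ctsh, Ctsc and Ctsk the least. The length is that of all annotated exons of a gene merged, 6489 bases for Ctsl and 1358 for Ctss, and the order depends on it. By CPM, Ctsl (99.8) and Ctsa (80.5) were above Ctss (61.75) in 3-month wild types. In 3-month wild types Ctsb was at 85.0 ± 3.73 FPKM (CPM per kilobase of exon; SD, n = 5), Ctsd at 57.2 ± 3.35 and Ctss at 45.5 ± 2.37. Ctsz (20.4 FPKM), Ctsa (17.1), Ctsl (15.4) and Ctsf (9.23) followed, and Ctsh (2.50), Ctsc (2.35) and Ctsk (1.64) were lowest. In 4-month APP mice the order at the top differed, with Ctsd at 166 ± 16.7 FPKM (SD, n = 6), Ctss at 123 ± 16.9 and Ctsb at 118 ± 7.99. Ctsd was above Ctsb on this scale in every APP mouse and below it in every 3-month and 4-month wild type mouse. That crossing depends on the merged exon lengths, 6051 bases for Ctsb and 2351 for Ctsd. By CPM, Ctsb stayed above Ctsd in the APP mice (678 to 806 against 354 to 459).

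**Figure D1:**
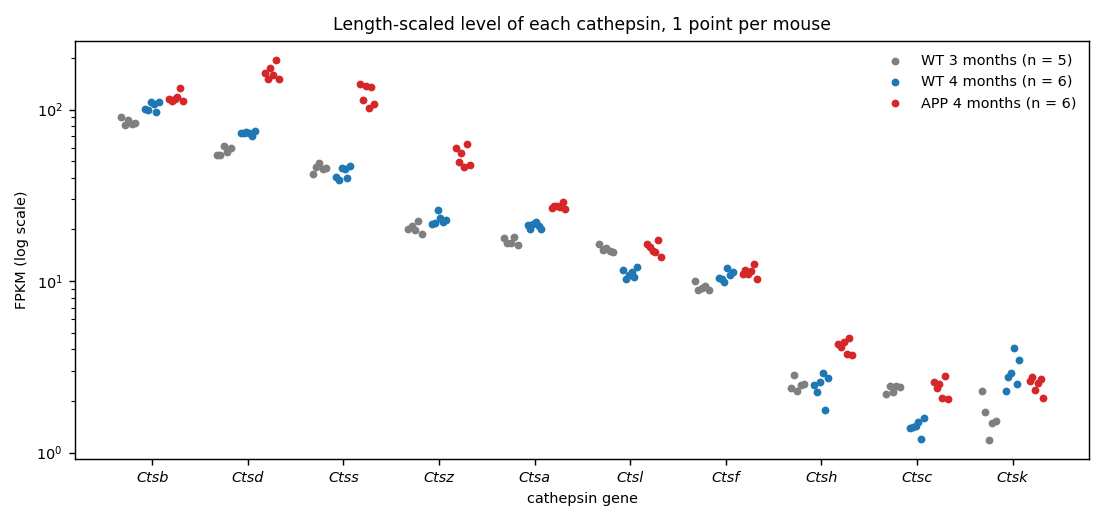
FPKM (log scale) of the 10 cathepsins, ordered by their level in 3-month wild types, with 1 point per mouse for 3-month wild type, 4-month wild type and 4-month APP mice. Ctsd, Ctss and Ctsz stand clearly above both wild type groups in the APP mice, while Ctsf does not.

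The comparison of APP with wild type mice at 4 months asked which genes respond to amyloid. Ctsd, Ctss, Ctsz, Ctsh and Ctsc rose, 5 of the 10 members, where 2.34% of all 16733 genes tested were called and 2.19% called higher (adjusted p under 0.05 and a log2 fold change of at least 0.5). No member fell. All levels below are CPM, given as the lowest, the median and the highest of 6 mice.

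Ctss, the cysteine protease of phagocytes, was at 52.4, 58.04 and 63.2 CPM in wild types and at 139, 169 and 191 in APP mice. The lowest APP mouse was thus well above the highest wild type. The log2 fold change was 1.54 (SE 0.083, 2.91-fold, adjusted p = 9.05e-10, from the quasi-likelihood test of edgeR after Benjamini-Hochberg correction, as for all adjusted p-values here). Ctsz, a carboxypeptidase of the papain family, was at 30.99, 32.3 and 37.3 CPM in wild types and at 66.5, 76.1 and 90.3 in APP mice. These ranges do not overlap either, with a log2 fold change of 1.24 (SE 0.079, adjusted p = 6.48e-09).

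Ctsd, the main aspartic protease of the lysosome, was at 166, 173 and 175.5 CPM in wild types and at 354, 381 and 459 in APP mice. The ranges are far apart, and the log2 fold change was 1.19 (SE 0.057, adjusted p = 2.09e-10). Ctsh, an aminopeptidase, was at 7.94, 11.4 and 13.1 CPM in wild types and 16.6, 19.0 and 21.0 in APP mice (log2 fold change 0.78, SE 0.10, adjusted p = 7.41e-05). Ctsc, the dipeptidyl peptidase that activates granule serine proteases, was at 6.99, 8.27 and 9.19 CPM against 11.9, 14.2 and 16.2 (log2 fold change 0.77, SE 0.091, adjusted p = 2.32e-05). Both are weakly expressed, and both had no wild type mouse within the range of the APP mice.

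Ctsl and Ctsa differed by less than the minimum fold. Ctsl, an endopeptidase, was at 66.3, 71.7 and 78.7 CPM in wild types and 89.97, 99.8 and 113 in APP mice (log2 fold change 0.50 to 2 decimals and just under the minimum, SE 0.057, adjusted p = 1.50e-05). Ctsa was at 94.3, 99.7 and 103.8 CPM against 124, 129 and 136 (log2 fold change 0.39, SE 0.040, adjusted p = 3.12e-06). Neither pair of ranges overlaps. Ctsb, the most abundant member by reads, was at 587.5, 630.3 and 671 CPM in wild types and 678, 695 and 806 in APP mice (log2 fold change 0.18, 95% interval 0.083 to 0.28, adjusted p = 0.0565).

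Ctsf and Ctsk had overlapping ranges. Ctsf, a broadly expressed endopeptidase, was at 49.7, 53.8 and 60.05 CPM in wild types and 52.0, 56.7 and 63.5 in APP mice (log2 fold change 0.08, 95% interval -0.03 to 0.19, adjusted p = 0.563). Ctsk, the collagen-cutting enzyme known from bone, was at 3.44, 4.28 and 6.16 CPM against 3.15, 3.895 and 4.15 (log2 fold change -0.25, 95% interval -0.51 to 0.01, adjusted p = 0.432). In all, 8 members had ranges that do not overlap, all 8 higher in APP mice, where 2.43% of the genes tested had such ranges. The median log2 fold change of the members was 0.63, and that of all genes tested was -0.00.

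**Figure D2:**
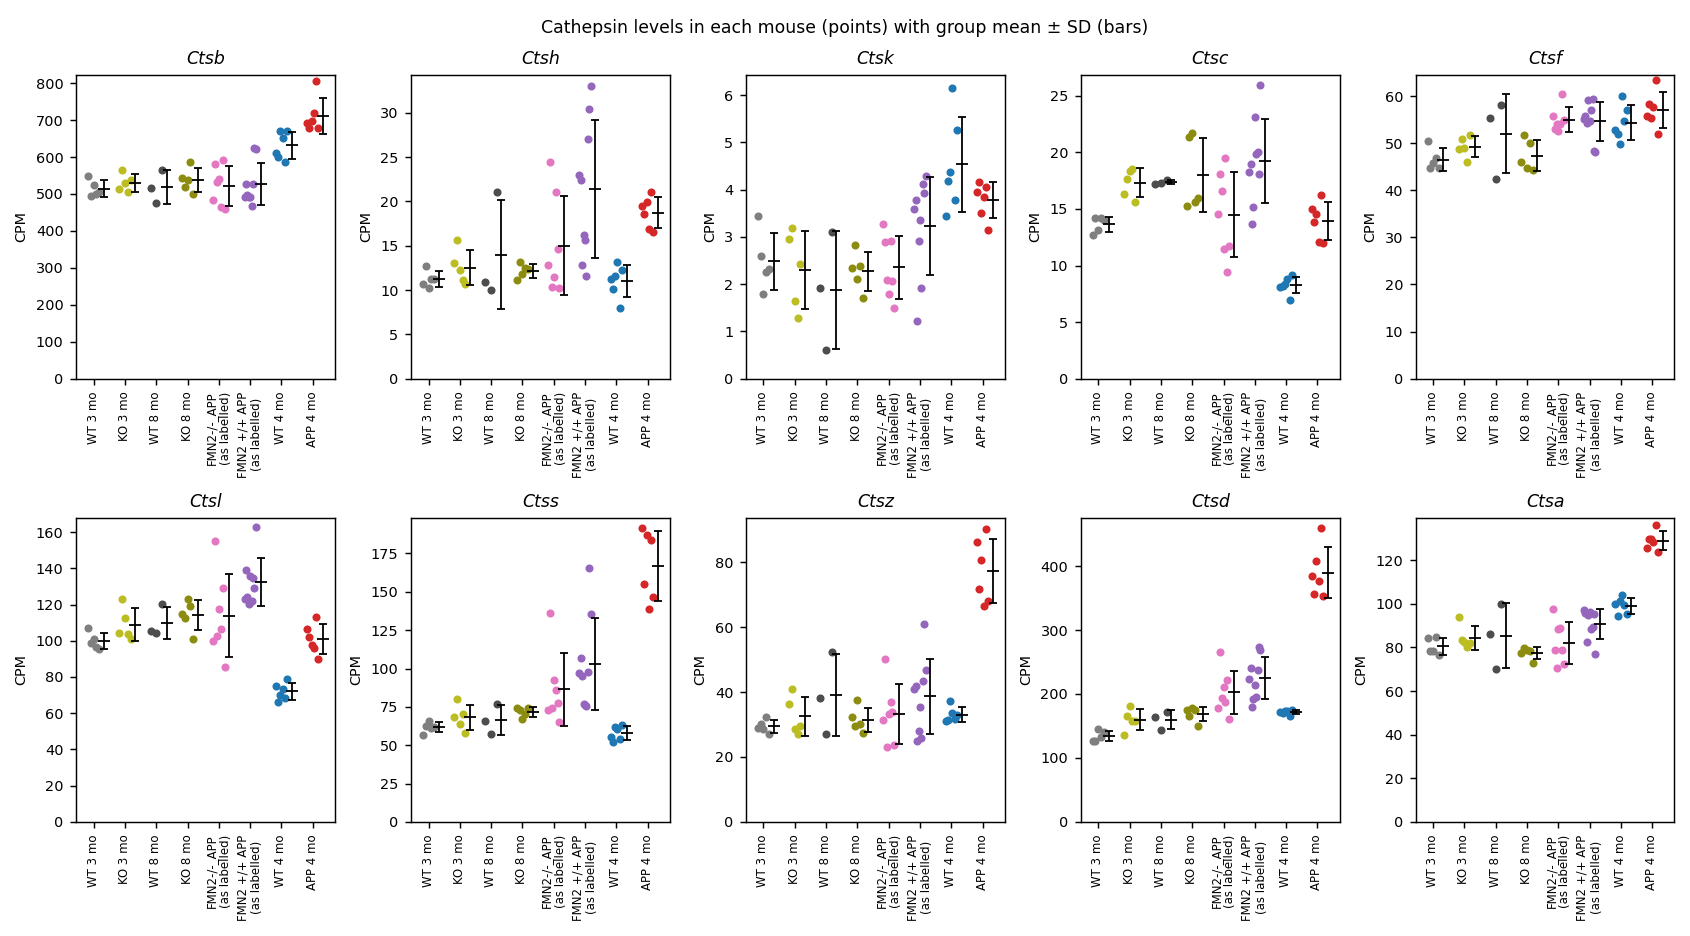
CPM of each cathepsin by mouse in the 8 groups, 1 panel per gene with its own axis from 0, with points for mice and bars for the group mean ± SD. Ctsd, Ctss and Ctsz are highest in 4-month APP mice, and the mice of the amyloid cross spread widely for Ctsh, Ctss and Ctsz.

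The 10 members summed to 1080, 1151 and 1199 CPM in 4-month wild types and 1545, 1648 and 1892 in APP mice. The makeup of that sum differed, since the mean share of Ctsb was 55.2% in wild types and 42.7% in APP mice, that of Ctsd 15.04% and 23.3%, and that of Ctss 5.06% and 9.99%. Shares of reads are not scaled for length.

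Microglia markers moved with the cathepsins. Of 12 microglia markers 10 rose, led by C1qa (log2 fold change 1.33), C1qb (1.28), C1qc (1.24) and Fcrls (1.23), and their sum was 379, 385 and 402 CPM in wild types and 622, 708 and 785 in APP mice. Of 10 markers of plaque-associated microglia 9 rose, with Cst7 (7.81), Clec7a (6.61), Itgax (5.12) and Ccl6 (3.37) in front, and a sum of 101.2, 111 and 121 CPM against 290, 320 and 358. No marker of border macrophages (6 tested) or neurons (5 tested) was called, while 1 of 6 astrocyte markers, Gfap (2.10), rose. No marker of these 5 lists was at 0 in all mice of a group. Summed oligodendrocyte markers were at 2061, 2325 and 5882 CPM in wild types and at 1256, 1832 and 1927 in APP mice, without overlap. Their part in the cathepsin differences was not tested. In bulk tissue, more cells of a type and more RNA per cell cannot be told apart, and the part of microglial content in the cathepsin differences was not tested.

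Relative to the summed microglia markers, the members split. The log2 ratio to that sum was higher in APP mice for Ctss (difference 0.65), Ctsz (0.35) and Ctsd (0.30), with no overlap between the groups. For Ctsh (-0.10) and Ctsc (-0.12) the groups overlapped. It was lower without overlap for Ctsl (-0.39), Ctsa (-0.49), Ctsb (-0.70), Ctsf (-0.80) and Ctsk (-1.11). The same sum is subtracted from every member, so the order of these differences is that of the fold changes. They also depend on the markers chosen. C1qa, C1qb, C1qc and Fcrls, which are part of the sum, each had a larger fold change than Ctsd. These ratios are descriptions and carry no test.

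**Figure D3:**
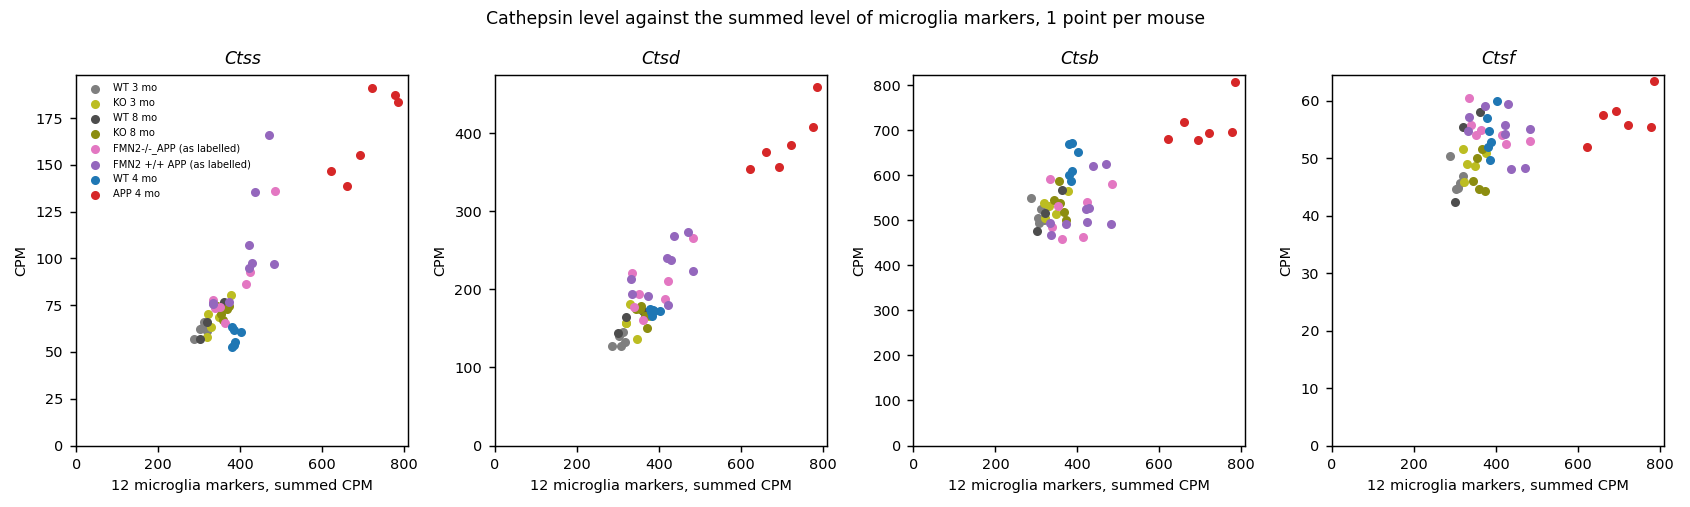
CPM of Ctss, Ctsd, Ctsb and Ctsf against the summed CPM of 12 microglia markers, 1 panel per gene and 1 point per mouse, coloured by the 8 groups. The 4-month APP mice lie at 622 to 785 CPM of markers and all other mice at 484 or below, with the 4-month wild types at 379 to 402.

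All 6 APP libraries were sequenced on lane 7 and all 6 wild type libraries on lane 5, so lane and genotype cannot be told apart. Without the 2 wild type libraries of high oligodendrocyte markers the same 5 members were called.

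Other genes of the pathway were counted from fixed lists. Of 6 endogenous inhibitors tested, 1 rose: Cst7, which encodes cystatin F, an inhibitor of cathepsin C and related enzymes, was at 0.147 ± 0.112 CPM (SD, n = 6) in wild types and 35.6 ± 4.31 (SD, n = 6) in APP mice (adjusted p = 2.61e-14). It is also in the list of plaque-associated markers. Of 11 genes for sorting and activation of lysosomal enzymes 1 rose: Grn, the precursor of the lysosomal granulins, was at 64.3 ± 3.17 and 118 ± 9.83 CPM (log2 fold change 0.89, SE 0.056, adjusted p = 5.47e-09). Of 2 antigen presentation genes tested, Cd74, the invariant chain cut by cathepsin S, rose from 4.56 ± 1.37 to 16.1 ± 6.58 CPM (log2 fold change 1.81, SE 0.25, adjusted p = 0.000133). None of 7 other lysosomal proteases and none of 4 lysosome regulators was called, with medians of 0.16 and -0.08. Of 13 other cathepsin genes, only Ctso passed the filter on low counts, and it was not called.

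The mice of the amyloid cross were set against the 10 Fmn2+/+ and Fmn2-/- mice of 3 months without amyloid. This contrast averages both labelled genotypes on each side, so it does not depend on which label is right, but the amyloid mice and the controls are different experiments, which cannot be told apart from amyloid. Ctsd, Ctsh and Ctss rose, 3 of the 10 members, where 9.25% of 17599 genes were called higher. No member's groups were free of overlap, which 2.05% of genes were with the amyloid mice higher and 2.2% with them lower.

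Ctsd was at 127, 142 and 181 CPM (lowest, median, highest) in controls and 161, 212 and 274 in amyloid mice. Of the 16 amyloid mice 13 were above every control, and the log2 fold change was 0.54 (SE 0.076, adjusted p = 1.89e-06). Ctsh was at 10.3, 11.3 and 15.6 CPM in controls and 10.3, 15.9 and 33.1 in amyloid mice (log2 fold change 0.59, SE 0.17, adjusted p = 0.00472). Ctss was at 56.9, 63.2 and 80.3 CPM against 65.4, 89.3 and 166 (log2 fold change 0.53, SE 0.12, adjusted p = 0.000644). For Ctsh and for Ctss 9 of 16 amyloid mice were above every control.

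The call of Ctss rested on single mice. The highest values were 166 CPM in FMN2 +/+ APP replicate 8 and 136 in FMN2-/-_APP replicate 2. Without either one its log2 fold change was below the minimum, at 0.49 and 0.46. Their summed microglia markers were 470 and 484 CPM, against 287 to 376.6 in the controls, and the part of these markers in the result was not tested.

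The other members had smaller differences. Ctsl (log2 fold change 0.23, adjusted p = 0.00692) and Ctsf (0.19, adjusted p = 0.000182) were under the minimum fold. Ctsz (0.21, 95% interval -0.05 to 0.47), Ctsk (0.21, -0.16 to 0.57), Ctsc (0.11, -0.09 to 0.31) and Ctsa (0.06, -0.03 to 0.16) missed the adjusted threshold. Ctsb was at 0.00, with a 95% interval of -0.10 to 0.10 and an adjusted p of 0.986.

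In this contrast 6 of 12 microglia markers rose, led by Fcrls (2.09), and 7 of 10 plaque-associated markers rose while Lpl fell by 1.06. The median sum of all 10 plaque-associated markers was not higher in the amyloid mice. It was 237, 256 and 283 CPM in Fmn2+/+ controls and 210, 264 and 290 in Fmn2-/- controls. Mice labelled FMN2-/-_APP had 142, 181.5 and 222, and mice labelled FMN2 +/+ APP 163, 250.5 and 306. Border macrophage markers (3 of 6 higher), oligodendrocyte markers (4 of 5 lower) and neuron markers (3 of 5 lower) also differed between the experiments. Among the inhibitors Cst7 (log2 fold change 4.61, SE 1.06) and Cst3 (0.59, adjusted p = 3.59e-08), which encodes the abundant secreted cystatin C, rose, whereas Cst6 (-0.97) and Serpinb1a (-0.70) fell. Of 7 other lysosomal proteases Cpq (1.301), Dpp7 (0.69) and Scpep1 (0.53) rose. The same 3 cathepsins were called without the libraries of high choroid plexus markers.

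The amyloid differences of both experiments share no sample, and their difference was tested. It was higher in the 4-month experiment for Ctsz (1.02, SE 0.20, adjusted p = 0.000287), Ctss (0.99, SE 0.19, adjusted p = 0.000174), Ctsc (0.64, SE 0.17, adjusted p = 0.00367) and Ctsd (0.64, SE 0.12, adjusted p = 9.97e-05), where 5.3% of genes were called higher. Ctsh, which rose in both, differed by 0.18 (95% interval -0.32 to 0.68, adjusted p = 0.656). Age, tissue and controls differ between the experiments and cannot be told apart.

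**Figure D4:**
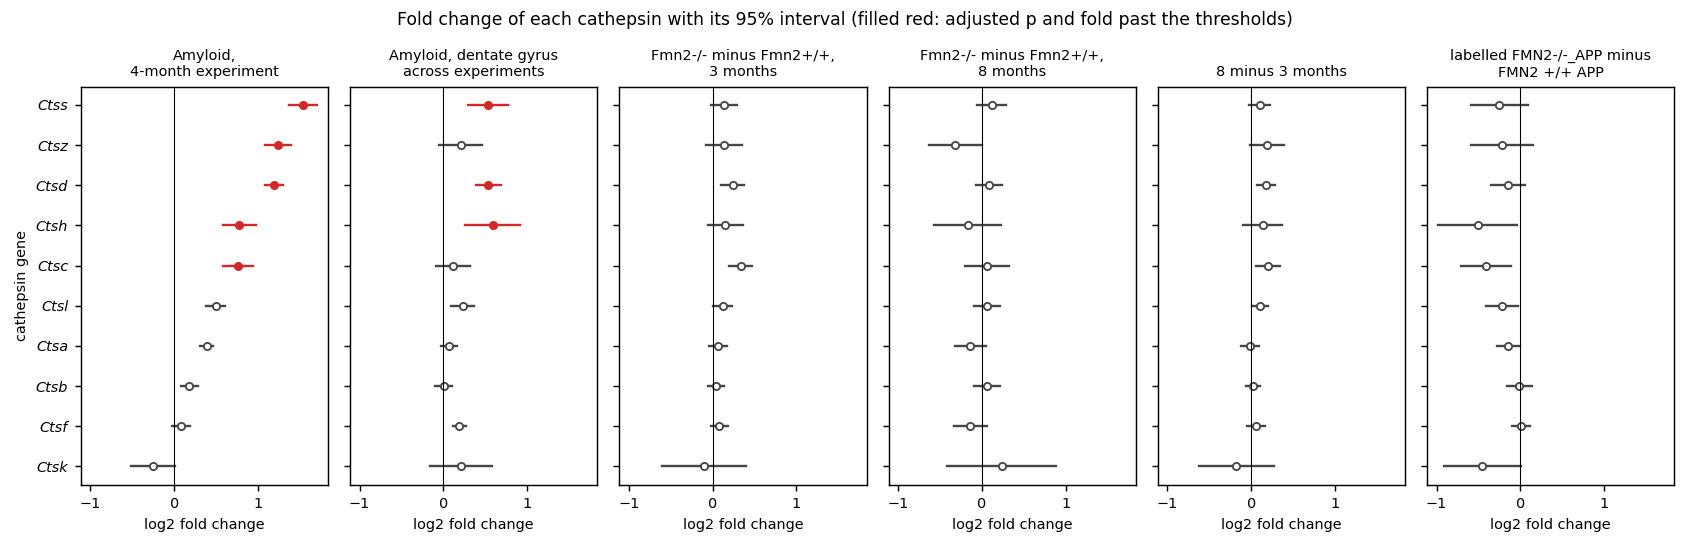
Log2 fold change of each cathepsin with its 95% interval in 6 comparisons, 1 panel each, with a line at 0 and filled red points for members called. The intervals of Ctss, Ctsz and Ctsd lie far above 0 in the 4-month experiment, and those of Ctsf and Ctsk cross it there.

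Loss of Fmn2 at 3 months changed no member by the thresholds used for Fmn2 and age (adjusted p under 0.05 and a log2 fold change of at least 0.25), which 0.0301% of 16630 genes passed. Ctsc was at 12.7, 14.2, 13.2, 14.2 and 13.99 CPM in the Fmn2+/+ mice and 16.4, 17.6, 18.4, 18.6 and 15.6 in the Fmn2-/- mice. These ranges do not overlap, as for 2.13% of genes, but the log2 fold change of 0.34 (SE 0.071) had an adjusted p of 0.141. In DESeq2, the alternative test, its adjusted p was 0.0122. All 5 Fmn2+/+ mice and 1 Fmn2-/- mouse ran on lane 5 and the other 4 on lane 6, and with lane as a term Ctsc was at 0.26 (adjusted p = 0.279). Ctsd was at 127, 127, 145, 133 and 140 CPM against 136, 166, 181, 157.5 and 158, with overlap (log2 fold change 0.24, SE 0.070, adjusted p = 0.278).

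At 8 months no member was called between Fmn2-/- and Fmn2+/+ mice, where 1.13% of 14665 genes were. The estimate farthest from 0 was that of Ctsz, with 38.04, 26.98 and 52.3 CPM in the 3 Fmn2+/+ mice and 32.3, 29.5, 37.4, 30.3 and 27.5 in the Fmn2-/- mice. The Fmn2+/+ mice span the whole range of the Fmn2-/- mice, and the log2 fold change was -0.32 (95% interval -0.64 to 0.003, adjusted p = 0.261). Fmn2+/+ replicate 2, at 26.98 CPM, is the shallowest library, and without it the value was -0.49 (adjusted p = 0.0215) in a fit that called 20.6% of genes. The difference between the genotype effects of the ages was called for 0 members and for 3.73% of genes. Without that library it was called for 3 members, Ctsa (-0.31), Ctsf (-0.33) and Ctsz (-0.64), and for 15.9% of genes.

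Between 8 and 3 months no member was called, where 6.3% of 17046 genes were. All 8-month mice but Fmn2+/+ replicate 1 ran on lane 7, and all 3-month mice on lanes 5 and 6. Median depth was 8381078 (Fmn2+/+) and 9943023 (Fmn2-/-) reads at 8 months against 23137670 and 32856438 at 3 months. Age thus largely coincides with lane and depth, and no lane term was fitted for it. Ctsd had a log2 difference of 0.17 (SE 0.054, adjusted p = 0.0420), under the minimum fold, and Ctsc one of 0.21 (adjusted p = 0.0716). Among other genes of the pathway, some were called higher at 8 months. These were Ctso (0.27), a little studied relative, the lysosomal carboxypeptidase gene Scpep1 (0.31) and the inhibitor genes Cst3 (0.34) and Serpinb6a (0.25). Of the marker lists, 2 of 12 microglia markers rose, C1qc (0.26) and Siglech (0.27), as did 1 of 8 plaque-associated markers tested, Tyrobp (0.33), and 1 of 6 astrocyte markers, Gfap (0.30). Of 5 neuron markers 1, Rbfox3, fell by 0.32 on the log2 scale.

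Within the cross no member was called between the labelled genotypes, where 0.774% of 16656 genes were. Ctsc was lower in mice labelled FMN2-/-_APP by the estimate (9.46, 14.6 and 19.5 CPM against 13.7, 19.0 and 25.9; log2 fold change -0.41, SE 0.15, adjusted p = 0.179), as was Ctsh (10.3, 12.8 and 24.4 against 11.6, 22.4 and 33.1; -0.51, SE 0.24, adjusted p = 0.292). The ranges of both overlap widely. The plaque-associated marker Clec7a was lower (-2.68, adjusted p = 0.0267) in mice labelled FMN2-/-_APP. The sum of all 10 plaque-associated markers was 142, 181.5 and 222 CPM in these mice. In mice labelled FMN2 +/+ APP it was 163, 250.5 and 306, with overlap. The 3-month mice without amyloid had sums of 210 to 290 CPM, so this sum does not set amyloid mice apart from controls. The part of these markers in the estimates was not tested. Among the other cathepsins Ctse, an aspartic protease of immune and epithelial cells, was called lower (-4.99, adjusted p = 0.00762).

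Wild types of the 4-month experiment differed from 3-month wild types in 3 members, where 45.1% of 16661 genes were called, 23.8% higher and 21.3% lower. Ctsk was higher (log2 difference 0.84, SE 0.18, adjusted p = 0.000705), and Ctsc (-0.77, adjusted p = 2.81e-07) and Ctsl (-0.52, adjusted p = 1.51e-07) were lower. Ctsc was between 6.99 and 9.19 CPM in the first and between 12.7 and 14.2 in the second. Ctsl was at -0.49, under the minimum, without the wild type libraries of high oligodendrocyte markers.

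Over all 8 groups, the 4-month APP mice had the highest mean level of Ctsa, Ctsb, Ctsd, Ctsf, Ctss and Ctsz. For Ctsa, Ctsb, Ctsd and Ctsz their range lay above that of the group next in order, while for Ctss and Ctsf it overlapped it. Ctsc (19.2 ± 3.73 CPM, SD, n = 9), Ctsh (21.4 ± 7.77) and Ctsl (132 ± 13.3) were highest in mice labelled FMN2 +/+ APP, and Ctsk in 4-month wild types (4.54 ± 1.01 CPM, SD, n = 6). For these 4 genes neighbours at the top of the order overlapped. Ctsc and Ctsl were lowest in 4-month wild types, below every mouse of the next group.

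Within groups, the members followed different genes. The deviations from the group mean over 46 mice were correlated with those of other genes among 18933 as a description, and mice of 1 group share an experiment and often a lane. Ctss was most like Tyrobp (r = 0.853), Cd68 (0.837) and C1qb (0.833), all genes of microglia. Ctsz was most like Ctsh (0.855), Cd68 (0.844) and Lyz2 (0.813), and the likeness of Ctsh to Enpp1 was 0.822.

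Ctsd was most like Ctsb (0.791), Ctsl (0.761) and Npc2 (0.753), which encodes a lysosomal cholesterol carrier, and Ctsl like Npc2 (0.794), Ctsd and Cd63 (0.755). Ctsb was most like Slc25a14 (0.798), Ctsd and Tmem176b (0.758). Ctsk was most like Enpp1 (0.859), Ccn2 (0.857) and Slc13a3 (0.853). The nearest gene was Il27ra for Ctsa (0.761), Arrdc1 for Ctsf (0.730) and Laptm4a for Ctsc (0.679).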

How the data were processed

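The authors made TruSeq mRNA libraries and used STAR (genome mm10) and HTSeq. Their deposited files hold raw read counts per Ensembl gene. The annotation release and strand setting are not given in the sources used here. Runs of 1 mouse were summed. Symbols and exon lengths came from GENCODE vM21 for 48349 of 48709 genes. Each comparison used edgeR 4.0.16 (R 4.3.3): TMM, filterByExpr, quasi-likelihood test, Benjamini-Hochberg adjustment over all genes tested, and a minimum log2 fold change of 0.25 (Fmn2, age) or 0.5 (others). Alternatives included DESeq2 1.42.0, which the authors also used. Levels are CPM over all mice. Intervals are 1.96 SE. Fits were tested on simulated data. Mice of a group share only a replicate number across groups: same-numbered mice correlated between -0.30 and 0.28, so no pairing was used. Labels do not say whether mice came from separate litters, so p-values measure the spread between these mice.

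The members, gene lists, markers and motifs were chosen with earlier results of these data known. Named genes were all members, up to 4 called genes per list with the largest fold change, and the 3 genes most like each member, and some of these genes are not reported here. Ctso was also named at 4 months, after its value was seen. Of the inhibitors listed 10 had a match. The 8-month Fmn2-/- libraries 2 and 3 were nearly alike in their counts and were also summed as an alternative. The chi-square per degree of freedom between their counts was 1.69. It was 3.78 or more for other pairs of this group, and 1.80 and 2.27 for runs of 1 mouse in the cross. They are labelled as separate mice, and whether they came from 1 mouse was not tested. Fits without libraries of high choroid plexus or oligodendrocyte markers were added after seeing the data.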

Additional observations from a re-analysis of the deposited data

Results flagged for a closer look

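Of the single values, 4 stood apart from their group by Dixon's criterion, out of 70 tests, each of 1 member in 1 group. Chance flags about 1 in 20 tests. The 8-month Fmn2+/+ group, with 3 mice, was not tested. Ctsa was at 93.8 CPM in 3-month Fmn2-/- replicate 1, where the other 4 mice lay between 80.2 and 83.2. Ctsb was at 806 CPM in 4-month APP replicate 5, where the others lay between 678 and 719. Ctsf was at 60.5 CPM in FMN2-/-_APP replicate 7 (others 52.5 to 55.8), and Ctsl at 163 CPM in FMN2 +/+ APP replicate 9 (others 120.5 to 139).

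For 4 members the amyloid difference itself differed between the 4-month experiment and the 3-month dentate gyrus, by an interaction contrast in edgeR, adjusted over all genes. The log2 difference was 1.02 for Ctsz, 0.99 for Ctss, 0.64 for Ctsd and 0.64 for Ctsc.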

How the results depend on the processing

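Of 2210 alternative values of the members' fold changes, 2164 kept their side of the threshold and are not among the direction changes below. A change of direction was counted only where the main estimate was farther from 0 than its SE. Depth was lowest at 8 months, where Ctsk, the weakest member, had 4 to 81 counts in Fmn2+/+ mice. The members called in the amyloid comparison of 4 months numbered 5 in the main test and 5 to 6 with 1 mouse left out. With 1 mouse left out, counts were 2 to 3 in the dentate gyrus amyloid contrast, 4 in the difference of both amyloid contrasts, 2 to 3 between wild types, 0 to 3 in the age by genotype contrast (3 without 8-month Fmn2+/+ replicate 2), 0 to 1 at 8 months and 0 elsewhere. Without a minimum fold the count was 1 for age (Ctsd), 5 for the dentate gyrus amyloid contrast and 8 between wild types. In that amyloid contrast 1 member (Ctsd) was called for mice labelled FMN2-/-_APP against Fmn2+/+ mice and 0 against Fmn2-/- mice. DESeq2 called 1 member (Ctsc) at 3 months.

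Among main estimates farther from 0 than their SE, the direction changed in 8 values, none of them called. Against Fmn2-/- mice alone, mice labelled FMN2-/-_APP had -0.031 for Ctsa and -0.25 for Ctsc, and against Fmn2+/+ mice -0.059 for Ctsk. With a length and GC correction Ctsa was at -0.028 in the dentate gyrus amyloid contrast, Ctsd at 0.043 in the age by genotype contrast and Ctss at -0.0094 for age. With 1 mouse left out Ctsh ranged from -0.53 to 0.070 in the age by genotype contrast and from -0.064 to 0.23 for age, with the direction changed without 8-month Fmn2+/+ replicate 3. The cause of these moves was not tested.

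Counts over all genes moved more. The main test called 5 genes at 3 months (DESeq2 90, no filter 14, replicate block 2, 1 mouse left out 3 to 49), 166 at 8 months (DESeq2 694, no filter 1124, lane term 3, length and GC correction 34, Fmn2-/- replicates 2 and 3 summed 5, replicate block 4, 1 mouse left out 4 to 3087), 635 for age by genotype (DESeq2 1406, no filter 399, length and GC correction 25, replicates summed 227, 1 mouse left out 8 to 2791) and 129 in the cross (DESeq2 359, no minimum fold 261, without choroid plexus libraries 56, 1 mouse left out 73 to 171). At 3 months RLE scaling, a lane term and a length and GC correction each gave 3. Without a minimum fold 2117 genes were called in place of 1074 for age, 637 in place of 392 for amyloid at 4 months, 8701 in place of 2905 for the dentate gyrus amyloid contrast, 4620 in place of 2031 for the difference of both and 12447 in place of 7508 between wild types. Pairwise, the dentate gyrus contrast gave 1640 and 1857 genes against Fmn2-/- mice. With the replicate number as a block 5 members were called at 4 months and 0 in the other blocked fits. The numbers did not pair the mice (same-numbered mice correlated best with each other in 1 of 4, 0 of 3, 2 of 7 and 1 of 6 pairs).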
